A study of Mus musculus with 16 samples.

Results

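Leukocytes leave the blood in steps, and each step has its own adhesion molecules. The 8 genes described here encode the vessel-side molecules E-selectin (Sele), P-selectin (Selp), ICAM-1 (Icam1) and VCAM-1 (Vcam1), the leukocyte integrin subunits CD18 (Itgb2), CD11b (Itgam) and CD49d (Itga4), and the L1-family adhesion molecule Chl1. They were listed by symbol and looked up in the array annotation, and 7 of the 8 were found, each with 1 probe set carrying its symbol alone, among 19938 genes in all. Selp was not analysed here. All samples were C57BL/6 mice of 10 to 12 weeks of age, per the labels, with either crystalline silica (CS) or buffered saline (PBS) instilled through the trachea. Day 2 held 4 groups: BLT1+/+ and BLT1-/- mice, each given CS or PBS. Day 60 held BLT1+/+KRasLA1 and BLT1-/-KRasLA1 mice, each given CS or PBS. BLT1 is a leukotriene B4 receptor of leukocytes, and BLT1-/- mice lack it. Mice with KRasLA1, an allele that becomes oncogenic in scattered cells, grow lung tumors, and both PBS and CS groups of day 60 carried it. Day and KRasLA1 therefore cannot be told apart. Each CS group was 3 lungs, and each PBS group was 1 array of RNA pooled from 3 mice, so a PBS group has no spread of its own.

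As background, selectins on activated vessel cells catch passing leukocytes and make them roll. Integrins on the leukocyte then bind immunoglobulin-like ligands on the vessel, CD11b/CD18 to ICAM-1 and CD49d to VCAM-1, and hold the cell before it crosses into the tissue. Sele, Icam1 and Vcam1 are textbook genes of the endothelial answer to Tnf and Il1, carried by the transcription factor NF-kB. Itgam and Itgb2 are expressed by neutrophils, monocytes and macrophages, Itgb2 also by lymphocytes, and Itga4 by lymphocytes and monocytes. Chl1, the close homolog of L1, is best known from axon growth in the nervous system and not as a leukocyte adhesion molecule.

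Promoter windows of 6 of the 8 genes were given in RefSeq sequence of GRCm38.p6, each reaching 250 bases upstream of a start site. Shown are 3 windows chosen for the motifs they hold. Those of Itga4 and Chl1 held none of the motifs named below and are not shown, nor is that of Selp. The Sele window lies inside the span given for the gene (chr1:164039614-164058487), so its start site is not the outermost one. Capitals mark GGANNNTCC, the inner letters of NF-kB sites, in Icam1 (chr9:21015690-21015939, plus strand) and Sele (chr1:164047984-164048233, plus strand), TATAAA and the AP-1 motif TGANTCA in Sele, and GAGGAA on either strand, the core of PU.1 sites, in Itgam (chr7:128062390-128062639, plus strand).
Icam1: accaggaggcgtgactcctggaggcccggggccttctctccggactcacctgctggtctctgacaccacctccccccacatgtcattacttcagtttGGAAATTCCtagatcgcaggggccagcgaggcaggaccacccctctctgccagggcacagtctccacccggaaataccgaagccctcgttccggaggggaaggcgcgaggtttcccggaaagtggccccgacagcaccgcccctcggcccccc
Sele: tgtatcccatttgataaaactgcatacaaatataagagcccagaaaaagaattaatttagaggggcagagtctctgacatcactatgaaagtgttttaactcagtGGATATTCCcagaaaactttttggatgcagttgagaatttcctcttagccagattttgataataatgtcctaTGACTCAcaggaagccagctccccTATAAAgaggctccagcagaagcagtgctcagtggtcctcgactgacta
Itgam: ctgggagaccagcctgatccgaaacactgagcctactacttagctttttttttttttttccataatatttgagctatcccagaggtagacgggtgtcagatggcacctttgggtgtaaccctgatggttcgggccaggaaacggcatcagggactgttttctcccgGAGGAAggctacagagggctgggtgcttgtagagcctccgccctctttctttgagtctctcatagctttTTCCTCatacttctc
GGANNNTCC began at position -153 from the start site in Icam1 and at -145 in Sele, and it was in none of the other 4 windows. It occurred in 7.27% of 32851 such windows. It was searched after the longer NF-kB consensus of 10 letters, which 7.25% of windows hold, matched in none of the 6. TGANTCA was found in Sele and Selp (6.75% of windows) and TATAAA in Sele alone (12.4%). GAGGAA was found at 2 places in Itgam and at 1 in Sele, and 23.3% of windows hold it. GGANNNTCC and TGANTCA read the same on both strands, the others were searched on both, and no marked matches overlap. A match is a description of the letters, not a site.

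Of the vessel-side molecules, the genes of E-selectin, ICAM-1 and VCAM-1 were higher in the day 2 silica lungs. The arrays measured whole lung RNA, so the cells that carried these RNAs are not known. Sele was at 8.80, 8.80 and 8.82 on the log2 scale in the 3 BLT1+/+ CS lungs and at 9.12, 9.19 and 8.62 in the BLT1-/- CS lungs. The pools were at 7.96 (BLT1+/+) and 8.14 (BLT1-/-). All 6 silica lungs lay above both pools, the BLT1+/+ lungs close together and the BLT1-/- lungs spread around them. Averaged over the BLT1 genotypes, Sele rose 1.79-fold (0.84 ± 0.13 log2, standard error as for every error below unless called SD; adjusted p = 0.00155 by limma). Icam1 was at 12.75, 12.86 and 12.88 in BLT1+/+ CS lungs, at 12.77, 12.76 and 12.83 in BLT1-/- CS lungs, and at 12.45 and 12.25 in the pools. Again no silica lung overlapped a pool, and the 6 lungs spanned less than the gap to the higher pool. Icam1 rose 1.37-fold (0.46 ± 0.06, adjusted p = 0.000781 by limma). Vcam1 moved least: it was at 11.04, 10.90 and 10.90 in BLT1+/+ CS lungs, at 10.92, 10.96 and 10.83 in BLT1-/- CS lungs, and at 10.75 and 10.64 in the pools. Its rise was 1.17-fold (0.23 ± 0.07, adjusted p = 0.0478 by limma), and it passed in 6 of 16 alternative analyses.

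At day 60 none of the 3 vessel-side genes passed by limma, with 2 of them (Icam1 and Vcam1) at an unadjusted p under 0.05. Of all 19938 genes, 2804 were at an unadjusted p under 0.05 at day 60. Sele was at 8.16, 8.35 and 8.48 in the BLT1+/+KRasLA1 CS lungs and at 8.27, 8.48 and 8.38 in the BLT1-/-KRasLA1 CS lungs, against 8.30 and 8.12 in the pools. The BLT1+/+KRasLA1 lungs lay on both sides of their own pool. The mean difference was 0.15 ± 0.13 (95% interval -0.14 to 0.43, adjusted p = 0.733 by limma), 0.26 without the BLT1+/+KRasLA1 pool and 0.03 without the BLT1-/-KRasLA1 pool. Icam1 was at 12.89, 12.80 and 12.63 in BLT1+/+KRasLA1 CS lungs, at 12.69, 12.74 and 12.71 in BLT1-/-KRasLA1 CS lungs, and at 12.60 and 12.56 in the pools. The 6 lungs were above both pools, by a mean of 0.16 ± 0.06 that did not pass (adjusted p = 0.228 by limma). Vcam1 was at 10.87, 10.75 and 10.72 in BLT1+/+KRasLA1 CS lungs, at 10.90, 10.97 and 10.80 in BLT1-/-KRasLA1 CS lungs, and at 10.69 and 10.48 in the pools. Its difference of 0.25 ± 0.07, about that of day 2, did not pass either (adjusted p = 0.0609 by limma). Here and below, a mean difference without 1 pool is the response of the genotype whose pool is kept. For Vcam1 it was 0.41 without the BLT1+/+KRasLA1 pool and 0.09 without the BLT1-/-KRasLA1 pool. With both pools, Vcam1 passed by limma with array weights (0.26, adjusted p = 0.0247), with dim genes left out (0.25, 0.0445) and with the replicate block (0.25, 0.0475). That block pairs lungs by number, though same-numbered lungs did not deviate together at day 60. Without BLT1+/+KRasLA1 CS replicate 3, Icam1 (0.20, adjusted p = 0.0445) and Vcam1 (0.27, adjusted p = 0.0482) passed.

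**Figure D1:**
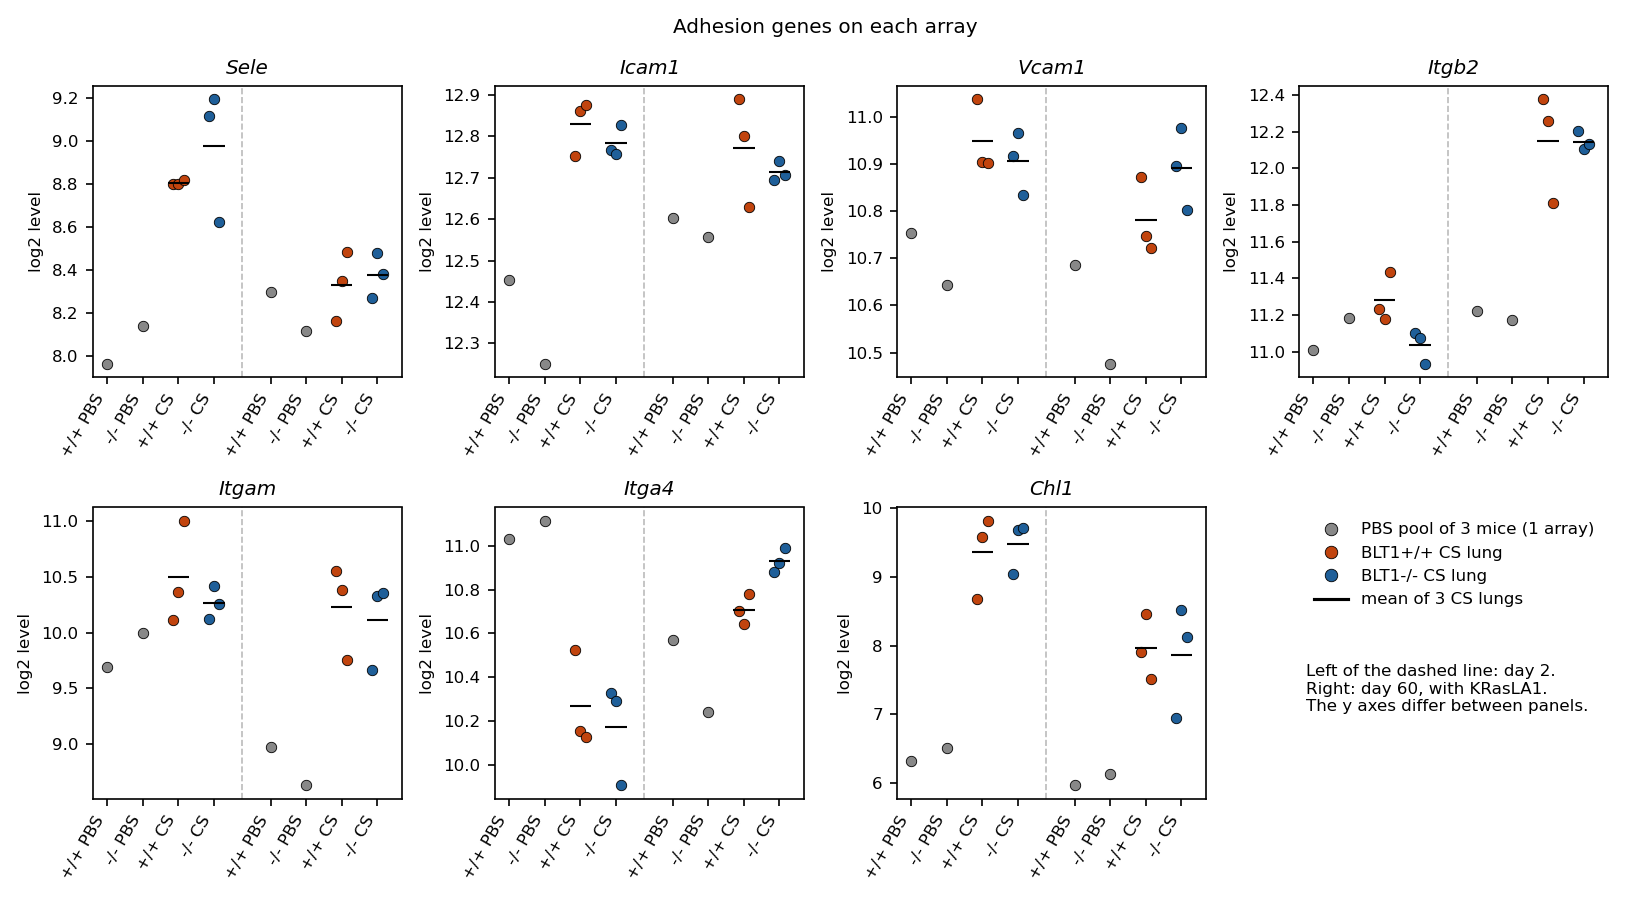
Log2 level of each adhesion gene (panels) on each array, with the BLT1 genotype and treatment on the x axis, day 2 left and day 60 right of the dashed line; points are arrays and bars the means of 3 CS lungs. Sele, Icam1 and Chl1 of the day 2 CS lungs lie above their pools, and Itga4 lies below them.

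On the leukocyte side, Itgb2 and Itgam passed as higher at day 60 and Itga4 as lower at day 2. The change in response between the days, given below, passed for Itgb2 and Itga4 and not for Itgam. Itgb2 encodes the shared beta chain of LFA-1, CD11b/CD18 and CD11c/CD18. At day 2 it was at 11.23, 11.18 and 11.43 in BLT1+/+ CS lungs, at 11.10, 11.08 and 10.94 in BLT1-/- CS lungs, and at 11.01 and 11.18 in the pools. The lungs lay around the pools, with a mean difference of 0.06 ± 0.12 (95% interval -0.19 to 0.31, adjusted p = 0.811 by limma). Leaving out the BLT1+/+ pool gave -0.15, and leaving out that of BLT1-/- gave 0.27, neither passing. At day 60 Itgb2 was at 12.38, 12.26 and 11.81 in BLT1+/+KRasLA1 CS lungs, at 12.20, 12.10 and 12.13 in BLT1-/-KRasLA1 CS lungs, and at 11.22 and 11.18 in the pools. The 6 silica lungs stood clear of both pools, and Itgb2 rose 1.93-fold (0.95 ± 0.12, adjusted p = 0.000526 by limma).

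Itgam, the alpha chain that makes CD11b/CD18 the complement receptor CR3, varied more between lungs. At day 2 it was at 10.12, 10.37 and 11.004 in BLT1+/+ CS lungs, at 10.12, 10.41 and 10.26 in BLT1-/- CS lungs, and at 9.69 and 10.00 in the pools. All 6 lungs lay above both pools, but the difference of 0.54 ± 0.24 did not pass (adjusted p = 0.188 by limma). Leaving out the BLT1+/+ pool gave 0.27 (adjusted p = 0.565), and leaving out that of BLT1-/- gave 0.80 (0.273). At day 60 Itgam was at 10.55, 10.38 and 9.75 in BLT1+/+KRasLA1 CS lungs, at 9.66, 10.33 and 10.35 in BLT1-/-KRasLA1 CS lungs, and at 8.97 and 8.63 in the pools. It rose 2.58-fold there (1.37 ± 0.24, adjusted p = 0.00552 by limma), with a low lung in each genotype. The silica lungs of both days had like levels, with means over 6 lungs of 10.38 ± 0.33 (SD) and 10.17 ± 0.37 (SD), while the day 60 pools were lower than those of day 2 by 1.04 ± 0.30 (adjusted p = 0.175 by limma). Neutrophil markers were lower in the same pools in 7 of 13 genes, where 0.231% of all genes were lower and 0.166% higher. The median of the 13 was -2.06 against -0.00 over all genes, and the part of these markers in the Itgam values was not tested.

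Itga4, the alpha chain of VLA-4, fell at day 2. It was at 10.52, 10.15 and 10.13 in BLT1+/+ CS lungs, at 10.33, 10.29 and 9.91 in BLT1-/- CS lungs, and at 11.03 and 11.11 in the pools. Every silica lung lay below both pools, and Itga4 was 1.80-fold lower (-0.85 ± 0.12, adjusted p = 0.000698 by limma). At day 60 it was at 10.70, 10.64 and 10.78 in BLT1+/+KRasLA1 CS lungs, at 10.88, 10.92 and 10.99 in BLT1-/-KRasLA1 CS lungs, and at 10.57 and 10.24 in the pools. The order was turned round, with all 6 lungs above both pools, but the difference of 0.42 ± 0.12 did not pass (adjusted p = 0.0694 by limma). It was 0.69 without the BLT1+/+KRasLA1 pool, where it passed (adjusted p = 0.0157), and 0.14 without the BLT1-/-KRasLA1 pool, where it did not (0.648). With both pools it passed with that day's arrays alone (0.42, 0.00878), with array weights (0.42, 0.0134) and with the replicate block (0.42, 0.0121). The block pairs lungs by number, though same-numbered lungs did not deviate together at day 60.

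Chl1 had the widest range among the 7 genes. It was at 8.69, 9.58 and 9.82 in BLT1+/+ CS lungs of day 2, at 9.04, 9.69 and 9.72 in BLT1-/- CS lungs, and at 6.31 and 6.51 in the pools. The lowest silica lung was more than 2 log2 units above the higher pool, and Chl1 rose 8.07-fold (3.01 ± 0.38, adjusted p = 0.00045 by limma). At day 60 it was at 7.90, 8.46 and 7.51 in BLT1+/+KRasLA1 CS lungs, at 6.94, 8.52 and 8.13 in BLT1-/-KRasLA1 CS lungs, and at 5.96 and 6.13 in the pools. It rose 3.63-fold (1.86 ± 0.38, adjusted p = 0.0132 by limma), with replicate 1 of the BLT1-/-KRasLA1 lungs nearest to the pools. Of the markers of Schwann cells and neurons, 0 of 7 measured genes passed at day 2 or day 60 by limma, and 0 did at an unadjusted p under 0.05. Their medians were -0.05 and -0.04, and their mean level lay between 8.2 and 8.41 on all 16 arrays. The related genes and binding partners L1cam, Nrcam, Nfasc, Nrp1, Sema3a, Cntn4 and Cntn6 had 0 of 7 higher at either day and 1 lower at day 2, the semaphorin receptor Nrp1 (-0.27 ± 0.06, adjusted p = 0.0153 by limma). The shares over all genes were 8.03% higher and 4.37% lower at day 2, and 3.35% higher and 0.677% lower at day 60. At an unadjusted p under 0.05 were 4949 of 19938 genes in all at day 2 and 2804 at day 60. Of the 7 relatives and partners, 3 were at day 2 and 2 at day 60. Besides Nrp1 at day 2 these were Nrcam, of the L1 family, at 0.59 and 0.53 (adjusted p = 0.0591 and 0.186), and Cntn4, a contactin, at -0.33 and -0.27 (0.0753 and 0.289), both named after their values were seen.

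**Figure D2:**
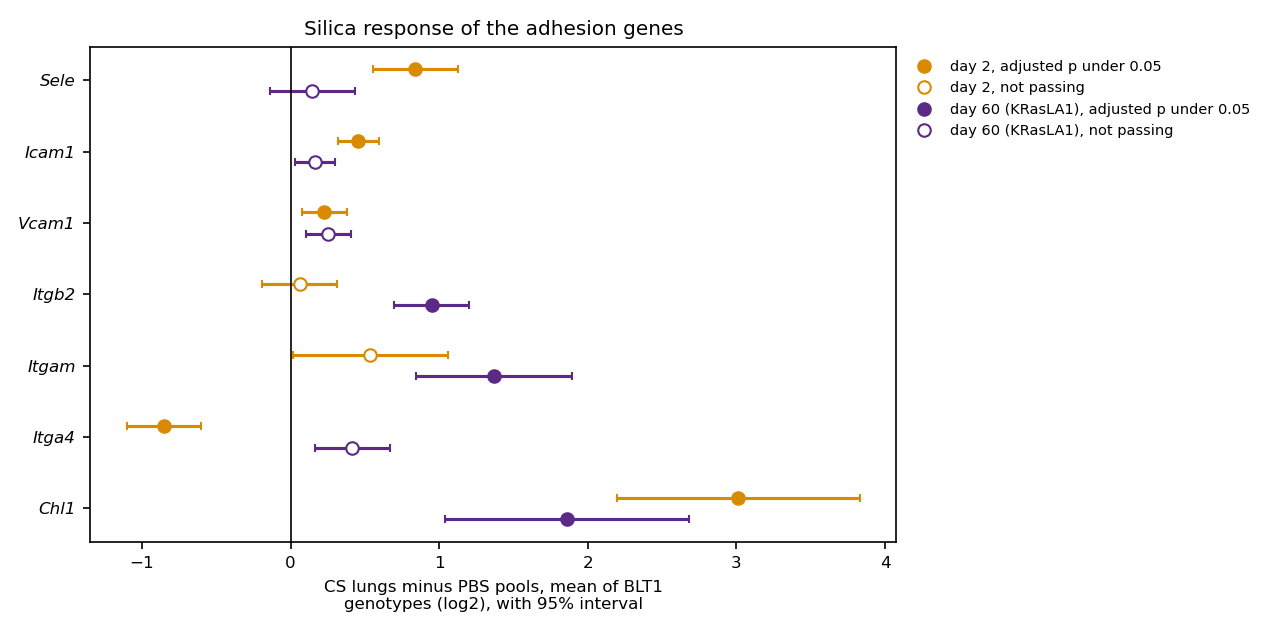
Difference between CS lungs and PBS pools in log2 units, averaged over the BLT1 genotypes, for each gene at day 2 and day 60, with 95% intervals; filled points have an adjusted p under 0.05. Sele, Icam1, Vcam1 and Itga4 are filled at day 2 and open at day 60, Itgb2 and Itgam the reverse, and Chl1 is filled at both.

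In all, 4 of the 7 measured genes rose and 1 fell at day 2 (Chl1, Sele, Icam1 and Vcam1 up, Itga4 down), where 8.03% of all genes rose and 4.37% fell (12.4% in all). At day 60, 3 of 7 rose (Chl1, Itgam and Itgb2) and 0 fell, where 3.35% of all genes rose and 0.677% fell (4.02% in all). The median over the 7 genes was 0.46 at day 2 and 0.42 at day 60, against -0.02 and -0.03 over all genes. The genes were listed with earlier results of these data known, so these shares and medians are no test of the set. All 6 silica lungs lay above both pools for 5 of the 7 genes at day 2 and for 6 at day 60. Over all genes this held for 12.1% and 9.66%. All 6 lay below both pools for 1 gene at day 2 (Itga4) and 0 at day 60, where 10% and 7.76% of all genes did. Calls at both days were fewer in additive fits of a day's arrays without 1 pool. Such a fit uses fewer arrays and gives the response of the genotype whose pool is kept. Over all genes, calls fell from 2473 to 96 without the BLT1-/- pool of day 2. They fell from 802 to 58 at day 60 without the BLT1-/-KRasLA1 pool. Whether a lost call reflects the pool or the fewer arrays was not tested. At day 2 the fit without the BLT1-/- pool lost Icam1 (0.38, adjusted p = 0.0982 by limma) and Itga4 (-0.76, 0.148). Without the BLT1-/- or the BLT1+/+ pool, Sele (0.84 each time, adjusted p = 0.123 and 0.0600) and Vcam1 (0.19, 0.578, and 0.26, 0.191) were lost. At day 60 Chl1 (1.99, 0.174, and 1.73, 0.230), Itgam (1.25, 0.163, and 1.48, 0.0810) and Itgb2 (0.93, 0.0865, and 0.97, 0.0511) were lost without the BLT1-/-KRasLA1 or the BLT1+/+KRasLA1 pool. Without a single CS lung of day 2, Vcam1 was lost for 5 of the 6 lungs (0.21 to 0.24, adjusted p from 0.0552 to 0.0873) and kept without BLT1-/- replicate 3.

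The change in response between the days was itself tested, as the day 60 minus the day 2 mean response. It passed for 2 of 7 genes, both higher at day 60, where 1.7% of all genes were higher, 0.657% lower and 2.35% passed in either direction. For Itga4 the response went from -0.85 to 0.42, a difference of 1.27 ± 0.16 (adjusted p = 0.00183 by limma). Its pools differed too, by -0.67 ± 0.14 from day 2 to day 60, which did not pass (adjusted p = 0.0704 by limma, 0.0131 with a replicate block at day 2). Its silica lungs had means of 10.22 at day 2 and 10.82 at day 60. For Itgb2 the response went from 0.06 to 0.95, a difference of 0.89 ± 0.17 (adjusted p = 0.0124 by limma). Its pools were at like levels on both days (0.10 ± 0.14, adjusted p = 0.920 by limma). The differences of Sele (-0.69 ± 0.19, adjusted p = 0.0777), Icam1 (-0.29 ± 0.09, 0.129), Itgam (0.83 ± 0.34, 0.277), Chl1 (-1.15 ± 0.54, 0.359) and Vcam1 (0.03 ± 0.10, 0.965) did not pass by limma. That of Sele passed with a replicate block at day 2 (adjusted p = 0.0426) and without BLT1-/- CS day 2 replicate 3 (-0.78, adjusted p = 0.00849). Between the PBS pools of the days 0 of 7 genes passed by limma (3 at an unadjusted p under 0.05), where 0.396% of all genes did. Of 19938 genes, 2127 were at an unadjusted p under 0.05 between these pools.

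Ranked by their means, the 8 groups fell into separate tiers for Chl1, Sele and Itgb2 only. For Chl1 the day 2 silica groups came first, with means of 9.48 ± 0.38 (SD, n = 3) in BLT1-/- and 9.36 ± 0.60 in BLT1+/+ lungs. The day 60 silica groups followed at 7.96 ± 0.48 in BLT1+/+KRasLA1 and 7.86 ± 0.82 in BLT1-/-KRasLA1 lungs, and the 4 pools came last. The gaps of 1.40 and 1.35 between these tiers were more than 2 standard errors, and no gap within a tier was. For Sele, only the gap of 0.43 between the day 2 and the day 60 silica groups exceeded 2 standard errors, and for Itgb2 only the gap of 0.87 between the day 60 silica groups and the others. Neighbouring groups of Icam1, Vcam1, Itgam and Itga4 did not differ by more than 2 standard errors at any step. Icam1, Vcam1 and Itgam nonetheless had the 4 silica groups in the upper ranks and the 4 pools in the lower ones.

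The question of whether BLT1 matters for these genes was asked in silica lungs directly and as an interaction with silica. BLT1-/- minus BLT1+/+ gave 0 of 7 genes at day 2 and 0 at day 60 by limma, also at an unadjusted p under 0.05, where 0.0201% of all genes passed at day 2, all of them lower, and 0.0401% at day 60 (0.015% higher, 0.0251% lower). At day 2 the differences were 0.17 for Sele (95% interval -0.11 to 0.46), -0.05 for Icam1 (-0.18 to 0.09), -0.04 for Vcam1 (-0.19 to 0.11) and 0.12 for Chl1 (-0.70 to 0.94). Those of the integrin genes were -0.24 for Itgb2 (-0.49 to 0.01), -0.23 for Itgam (-0.75 to 0.29) and -0.09 for Itga4 (-0.34 to 0.16). Itgb2 was the single gene of the 7 whose day 2 lungs did not overlap between the genotypes, lower in BLT1-/-, as 6.13% of all genes were (6.31% were higher). Monocyte and macrophage markers had negative differences beside it in 9 of 9 genes (median -0.22, 0 passing by limma, 3 at an unadjusted p under 0.05), and neutrophil markers had 1 of 13 lower (median -0.26). For BLT1-/- minus BLT1+/+ after silica, 1735 of 19938 genes were at an unadjusted p under 0.05 at day 2 and 810 at day 60. The part of these markers in the Itgb2 difference was not tested. At day 60 the differences lay between -0.11 (Itgam, -0.63 to 0.41) and 0.22 (Itga4, -0.03 to 0.47). The Itga4 lungs did not overlap, higher in BLT1-/-KRasLA1, as 4.58% of all genes were, while 5.92% were lower without overlap and none of the 7 was. Chl1 and Itgam had the widest intervals at both days.

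Set against its own pool, each BLT1 genotype gave fewer calls. In BLT1+/+ lungs of day 2, Chl1 (3.05 ± 0.54, adjusted p = 0.0189) and Sele (0.84 ± 0.19, 0.0494) rose and Itga4 fell by 0.76 on the log2 scale (adjusted p = 0.0450), 3 of 7 where 1.16% of all genes passed, 0.853% higher and 0.311% lower. Without BLT1+/+ CS replicate 2 none of the 3 passed (Chl1 2.94, adjusted p = 0.0698; Sele 0.85, 0.113; Itga4 -0.70, 0.120). None passed without replicate 3 either (Chl1 2.82, 0.0600; Sele 0.84, 0.125; Itga4 -0.69, 0.126). With all 3 lungs, Sele and Itga4 were also lost with the day 2 arrays alone (adjusted p = 0.122 and 0.146), with no trend (0.0635 and 0.0680) and with quantile normalization (0.0561 and 0.0632), and Sele against the BLT1-/- pool (0.67, 0.0821). Icam1 was at 0.38 ± 0.09 (adjusted p = 0.0638, 0.0375 with a replicate block at day 2, and 0.0283 without BLT1+/+ CS replicate 1, all by limma). In BLT1-/- lungs of day 2, Chl1 (2.98 ± 0.54, adjusted p = 0.00865), Sele (0.84 ± 0.19, 0.0205) and Icam1 (0.53 ± 0.09, 0.00674) rose and Itga4 fell by 0.94 on the log2 scale (adjusted p = 0.00773), 4 of 7 where 6.6% of all genes passed, 5.19% higher and 1.4% lower. Sele was lost there with the day 2 arrays alone (0.84, adjusted p = 0.0601). At day 60 Itgb2 was the single gene called in each genotype, at 0.93 ± 0.17 in BLT1+/+KRasLA1 lungs (adjusted p = 0.0211) and 0.97 ± 0.17 in BLT1-/-KRasLA1 lungs (0.0144). Beside this 1 of 7 genes higher and 0 lower, 0.762% of all genes passed in BLT1+/+KRasLA1 lungs (0.687% higher, 0.0752% lower) and 1.17% in BLT1-/-KRasLA1 lungs (1.1% higher, 0.0702% lower). With the day 60 arrays alone it was lost in both genotypes (0.93, adjusted p = 0.0869, and 0.97, 0.0515). In BLT1+/+KRasLA1 lungs it was also lost without replicate 1 (0.81, 0.0554) or 2 (0.87, 0.0695). Without BLT1+/+KRasLA1 replicate 3, Itgam passed there as well (1.49, 0.0301). Without BLT1-/-KRasLA1 replicate 1, Chl1 (2.19, 0.0239) and Itgam (1.71, 0.0178) passed in BLT1-/-KRasLA1 lungs.

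The interaction of BLT1 with silica gave 0 of 7 genes at either day by limma, with 0 and 2 at an unadjusted p under 0.05, and 0% of all genes passed (896 and 396 genes did at an unadjusted p under 0.05). The 2 were Itga4 and Vcam1 at day 60. Their response was larger in BLT1-/-KRasLA1 than in BLT1+/+KRasLA1 lungs by 0.55 ± 0.23 and 0.32 ± 0.14 (adjusted p = 1 each by limma). The standard errors of the interactions ran from 0.13 for Icam1 to 0.76 for Chl1, and the 95% interval for Chl1 at day 2 ran from -1.71 to 1.56.

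**Figure D3:**
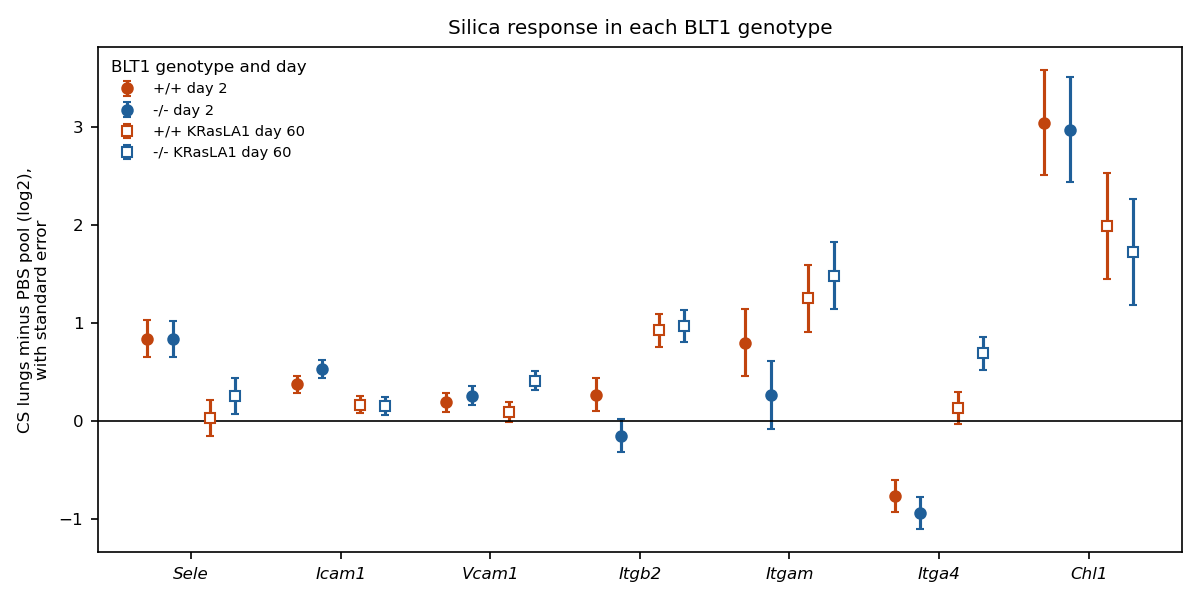
Difference between the 3 CS lungs and the PBS pool of each BLT1 genotype in log2 units for each gene, with standard errors; filled circles are day 2 and open squares day 60. The 2 genotypes of a day lie within about a standard error of each other in several cases. Among them are Sele, Vcam1 and Chl1 at day 2 and Icam1, Itgb2, Itgam and Chl1 at day 60.

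The other genes of leukocyte adhesion, counted from lists chosen by role, gave few calls on the vessel side. For this list and those below, the shares over all genes were 8.03% higher and 4.37% lower at day 2. They were 3.35% and 0.677% at day 60, and 1.7% and 0.657% for the difference between the days. At an unadjusted p under 0.05 were 4949 of 19938 genes at day 2 and 2804 at day 60. Of 18 further vessel adhesion molecules, among them Pecam1, Icam2, Cdh5 and Madcam1, 0 passed at day 2 and 0 at day 60 by limma, with 4 and 1 at an unadjusted p under 0.05, and medians of -0.08 and -0.10. Endothelial markers, 3 of which are also in that list, had 0 higher and 1 lower of 12 at day 2 (median -0.27, 7 at an unadjusted p under 0.05) and 0 passing at day 60 by limma (median -0.18, 1 at an unadjusted p under 0.05). All 12 differences were negative at both days. Their mean level per lung was 11.62 to 12.08 after silica and 12.08 to 12.23 in the pools of day 2. Sele, Icam1 and Vcam1 rose at day 2 in the same lungs. In whole lung RNA, fewer cells of a type and less RNA per cell cannot be told apart.

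Among selectin ligands and their enzymes, 3 of 9 rose and 2 fell at day 2. The sialyltransferase St3gal4 (0.39 ± 0.07, adjusted p = 0.0021), the fucosyltransferase Fut4 (0.60 ± 0.12, 0.00569) and the hyaluronan receptor Cd44 (0.39 ± 0.10, 0.0197) rose by limma. Another sialyltransferase, St3gal6 (-0.26 ± 0.07, 0.0248), and the leukocyte sialomucin Spn (-0.32 ± 0.09, 0.0409) fell. At day 60 Cd44 (0.51 ± 0.10, adjusted p = 0.00908) and Selplg, the P-selectin ligand PSGL-1 (0.66 ± 0.13, 0.0114), rose, 2 of 9 with 0 lower. The response of Selplg differed between the days by 0.96 ± 0.19 (adjusted p = 0.0155 by limma).

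Of 13 other integrin subunits, 2 rose and 3 fell at day 2, and 3 rose at day 60 with 0 lower. At day 2 the fibronectin receptor chain Itga5 (0.70 ± 0.11, adjusted p = 0.00123) and Itgav (0.33 ± 0.09, 0.0261) rose by limma. The beta chain Itgb7, a partner of Itga4 in gut-homing lymphocytes, fell (-0.36 ± 0.09, 0.0232), and so did the collagen receptor chain Itga1 (-0.42 ± 0.12, 0.0362) and Itgae, a chain of intraepithelial T cells (-0.32 ± 0.09, 0.0388). At day 60 Itgae (0.63 ± 0.09, adjusted p = 0.00169), the CD11c gene Itgax (1.05 ± 0.16, 0.0019) and Itgb7 (0.39 ± 0.09, 0.0342) rose. The change between days passed for Itgae (0.94 ± 0.13, adjusted p = 0.0025), Itgb7 (0.75 ± 0.13, 0.0094) and Itgax (0.98 ± 0.22, 0.038) by limma.

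Of 11 genes of integrin activation, 0 rose and 3 fell at day 2, where 8.03% of all genes rose and 4.37% fell. The 3 were the adaptor Skap1 (-0.42 ± 0.09, adjusted p = 0.00859 by limma), the Rap1 effector Rassf5 (-0.36 ± 0.09, 0.0209) and the adaptor Fyb (-0.52 ± 0.15, 0.0389). At day 60, 2 rose by limma, the exchange factor Vav1 (0.84 ± 0.15, adjusted p = 0.00631) and Fyb (0.63 ± 0.15, 0.0323). All 11 had a positive difference between the days, though that of Rap1b was only 0.0003 ± 0.07, against a median of -0.02 over all genes. Of these, Skap1 (0.70 ± 0.13, adjusted p = 0.0103) and Fyb (1.16 ± 0.22, 0.0121) passed by limma.

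**Figure D4:**
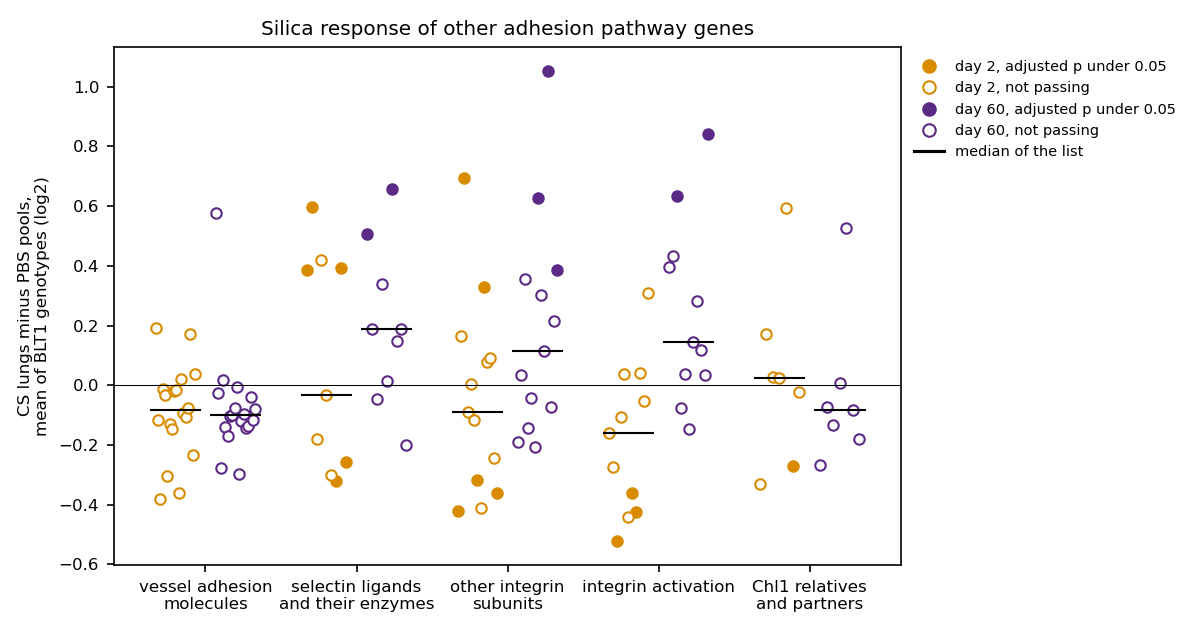
Difference between CS lungs and PBS pools in log2 units, averaged over the BLT1 genotypes, for the genes of 5 adhesion lists (x axis) at day 2 and day 60; points are genes, filled where the adjusted p is under 0.05, and bars are list medians. No vessel adhesion molecule is filled, and the integrin activation genes have a median of -0.16 at day 2 and 0.15 at day 60.

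Leukocyte markers moved beside the integrin genes. Over all genes, 8.03% were higher and 4.37% lower at day 2, and 3.35% and 0.677% at day 60. At an unadjusted p under 0.05 were 4949 of 19938 genes at day 2 and 2804 at day 60. At day 2, T cell markers were lower in 5 of 6 measured genes (median -0.50), B cell markers in 5 of 5 (-1.12) and NK cell markers in 5 of 5 (-1.02). Neutrophil markers had 0 of 13 passing by limma (3 at an unadjusted p under 0.05; median -0.11), and monocyte and macrophage markers 2 higher and 1 lower of 9 (0.22). At day 60, monocyte and macrophage markers were higher in 7 of 9 (median 0.67), T cell markers in 4 of 6 (0.57) and neutrophil markers in 3 of 13 (0.74), while B cell and NK cell markers had 0 of 5 each by limma (3 and 0 at an unadjusted p under 0.05). The mean level of the T cell list was 7.92 to 8.23 in the day 2 silica lungs and 8.60 and 8.65 in their pools, and 8.4 to 9.01 in the day 60 silica lungs and 8.10 and 8.18 in theirs. The mean level of the monocyte and macrophage list was 10.33 to 10.70 in the day 2 silica lungs and 10.81 to 11.24 in those of day 60, with all pools between 10.24 and 10.42. Of other cells, heart muscle markers had 2 of 5 lower at day 2 (median -0.83) and 0 passing at day 60 (-0.60), platelet markers 1 of 6 lower at day 2 (-0.31) and alveolar macrophage markers 1 of 8 higher at day 2 and 2 at day 60. The alveolar macrophage list includes Itgax, which is also counted among the integrin subunits that rose at day 60. The part of these cell classes in the Itga4, Itgb2 and Itgam values was not tested.

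**Figure D5:**
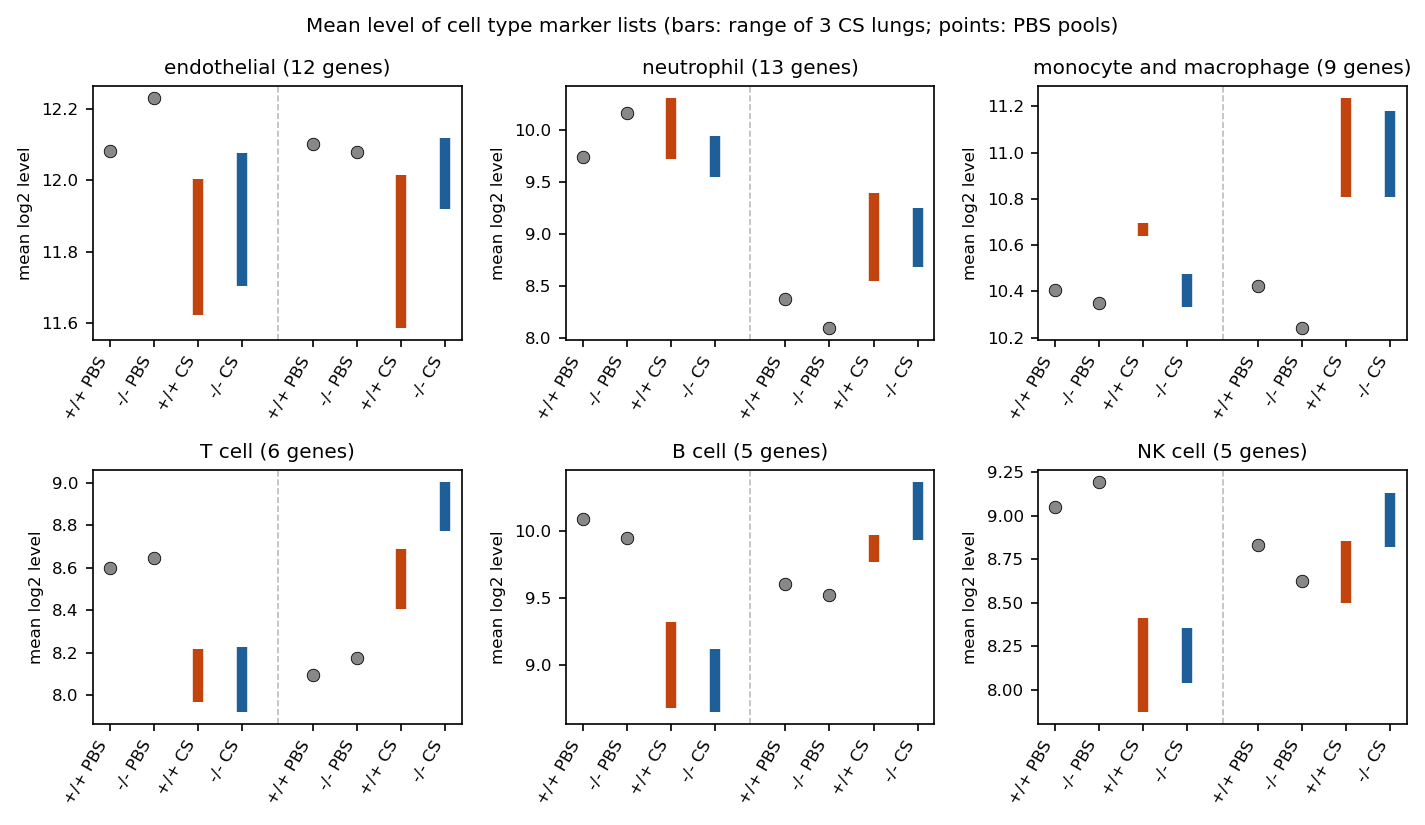
Mean log2 level over the genes of 6 cell type marker lists, with BLT1 genotype and treatment on the x axis, day 2 left and day 60 right of the dashed line; bars span the 3 CS lungs of a group and points are PBS pools. T cell markers lie below the pools after silica at day 2 and above them at day 60.

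For the 4 genes whose group means spanned at least 1 log2 unit, the 3 most similar profiles were sought, by the root mean square difference between log2 values over the 16 arrays, each gene centred on its own mean. Chl1, whose own values varied by 1.32 around their mean, was closest to Timp1, an inhibitor of metalloproteases (0.301), Ccl2, a monocyte attractant (0.329), and the cytokine Il6 (0.460). Timp1 rose by 3.36 at day 2 and 1.79 at day 60, Ccl2 by 3.02 and 2.20, and Il6 by 3.73 and 1.41, each passing at both days by limma. Itgb2, which varied by 0.503, was closest to the lysosomal protease Ctss (0.122), the thromboxane synthase Tbxas1 (0.134) and the potassium channel Kcnn4 (0.139). These 3 differed from the pools by 0.05 to 0.06 at day 2 and by 0.77 to 1.02 at day 60. Itgam (0.574) was closest to Tlr13, an endosomal receptor for bacterial RNA (0.214), Clmp (0.247) and the myeloid receptor Cd300lf (0.260). Sele (0.351) was closest to the tRNA methyltransferase Mettl1 (0.155), Lsm2 (0.162) and the endocytic receptor Lrp2 (0.178). The profiles share the same arrays, and likeness over 16 of them is a description.

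The arrays had log2 medians of 8.25 to 8.34, and the surfactant gene Sftpc, a lung marker, was at 14.25 to 14.47 on all 16. By sex-linked genes 3 arrays stood apart. BLT1+/+KRasLA1 CS replicate 2 had the Y-linked Eif2s3y at 10.09 and the X-inactivation RNA Xist at 6.61. The day 60 pools had Eif2s3y at 9.68 (BLT1+/+KRasLA1) and 9.04 (BLT1-/-KRasLA1) with Xist at 12.32 and 12.16. The remaining 13 arrays had 4.27 to 4.74 for Eif2s3y and 12.75 to 13.06 for Xist. Without that lung the day 60 responses were 1.74 for Chl1, 1.33 for Itgam and 0.92 for Itgb2 (adjusted p = 0.0252, 0.0131 and 0.00139 by limma). The pools cannot be left out together, and the part of sex in the day 60 values was not tested.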

How the data were processed

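Total lung RNA was labelled with Affymetrix WT reagents, per the labels' protocols, and measured on 16 arrays, 1 per sample. The deposited values are log2 levels per probe set, normalized by the authors with RMA, with Partek 6.6 also named, per the submitters' processing notes. No source used here gives the order in which they were applied. RMA gives all arrays like distributions and compresses dim signals, so fold changes of dim genes are understated. The table held 35556 probe sets. The 21789 annotated with a single symbol were used, and the 1621 with several and the 12146 with none were left out. Of a gene's probe sets the one with the highest mean was kept (19938 genes).

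Group means of all 16 arrays were fitted with limma 3.58.1 in R 4.3.3 (lmFit, eBayes with trend; 8 residual and 5.4 prior degrees of freedom). PBS pools were assumed to vary like CS lungs. The 12 comparisons were two-sided, each adjusted by Benjamini-Hochberg over all genes, with a threshold of 0.05. Precision is limited by the number of arrays. The fit was tested on simulated data. The labels name biological replicates but no animals, so p-values measure the spread between these samples, which may be partly technical.

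Genes named are the 8 members, up to 4 passing genes per pathway list and comparison by smallest p, and the 3 nearest profiles. Spn and Itgae at day 2, Nrcam, Cntn4 and the genes given as examples of a list fall outside this rule and were chosen after their values were seen. Members and lists were chosen with earlier results of these data known. Same-numbered CS lungs of the BLT1 genotypes deviated together at day 2 (r over genes 0.426, 0.200 and 0.345) and not at day 60 (0.0914, 0.00965 and 0.0552). The number was therefore taken to pair lungs at day 2, on this evidence from the data alone. The main fit did not use this pairing, which entered only the replicate blocks among the alternatives. Alternatives were a single day's arrays, quantile normalization, dim genes left out, array weights, replicate blocks, no trend, all probe sets, the other genotype's pool, and each lung or pool left out.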

Additional observations from a re-analysis of the deposited data

Results flagged for a closer look

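The silica response of Itga4 differed between the days by 1.27 (adjusted p = 0.00183 by limma), with -0.85 at day 2 and 0.42 at day 60, and that of Itgb2 by 0.89 (adjusted p = 0.0124), with 0.06 and 0.95. Both stood out because the difference between days itself passed, and both passed in all 19 alternatives run (Itga4 1.20 to 1.33, Itgb2 0.83 to 0.97). For Itga4 the pools differed as well, by -0.67 ± 0.14 from day 2 to day 60, and the silica lungs had means of 10.22 and 10.82. For Itgb2 the pools differed by 0.10 ± 0.14. Neither pool difference passed by limma (adjusted p = 0.0704 and 0.920). Day 60 lungs also carried KRasLA1, so day and KRasLA1 cannot be told apart.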

How the results depend on the processing

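Of 1075 values of the 7 genes under alternatives, 959 kept their direction and their side of the threshold, 38 lost a call, 41 gained one, and 37 changed sign without a call on either side. No called value changed sign. The mean day 2 response had 5 genes called, 3 with dim genes left out (Sele and Chl1 are then not tested) and in the additive fit lacking the BLT1+/+ pool, and 1 in the additive fit lacking the BLT1-/- pool. That of day 60 had 3: 6 with array weights, 5 with the replicate block, 1 and 0 without the BLT1+/+KRasLA1 and the BLT1-/-KRasLA1 pool, and 3 to 5 without single lungs. In BLT1+/+ lungs of day 2 the 3 calls became 1 with that day's arrays alone or with no trend, and 0 to 4 without single lungs. The 4 of BLT1-/- lungs became 2 with dim genes left out. The 1 call of BLT1+/+KRasLA1 lungs became 3 with array weights, 2 with the other pool or the replicate block, 0 with day 60 alone, and 0 to 2 without single lungs. The 1 of BLT1-/-KRasLA1 lungs became 5 with array weights, 2 with dim genes left out, 3 with the replicate block, and 1 to 3 without single lungs. The difference between days had 2, and 4 with array weights. The PBS pools had 0, 2 with array weights and 1 with either replicate block. The cause was not tested.

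The block at day 2 only, chosen after seeing the data, sets the replicate effect of the pools to 0. It changed no call of the 7 genes beyond those given with the results. Counts over all genes ranged from 96 to 3299 (2473 as reported) for the mean response of day 2, 58 to 1729 (802) for day 60, 65 to 749 (232) in BLT1+/+, 425 to 2647 (1315) in BLT1-/-, 43 to 676 (152) in BLT1+/+KRasLA1 and 69 to 876 (234) in BLT1-/-KRasLA1 lungs. They ranged from 1 to 21 (4) and 1 to 14 (8) for BLT1 after silica at day 2 and day 60, 312 to 977 (469) for the difference between days and 44 to 335 (79) for the pools, and were 0 throughout for both interactions. Chl1 was dim in the pools (5.96 to 6.51, where array medians were 8.25 to 8.34), which limits how well its rise is measured.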
